A study of Rattus norvegicus with 9 samples.

Results

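Interferon-stimulated genes are the genes that a cell switches on when it senses an interferon, and this report describes 37 of them in dorsal root ganglia (DRG) of the rat. The 37 genes were chosen by name, as a list of gene symbols, with earlier results of these data known. All 37 were found in the deposited table of 20194 genes. Of these, 36 had an FPKM (fragments per kilobase of transcript, scaled to the mapped reads of the library) of at least 1 in at least 1 of 9 libraries and were tested with 14305 genes in all. Oas3 was the one below that level.

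The samples were DRG tissue of male Sprague Dawley rats, 8 to 10 weeks old per the methods, in 3 groups of 3 libraries. Sham rats had the operation without nerve injury. SNI rats had spared nerve injury, a model of neuropathic pain in which branches of the sciatic nerve are cut and the sural branch is left intact. SNI + G15 rats had the same injury and received G15, an antagonist of the G protein-coupled oestrogen receptor GPER, at 1.8 μg/μl in 1 μl through an intrathecal catheter placed on day 5 after injury, with drug given for 24 h per the labels. The labels mark the sham and SNI libraries as controls for G15 and give a vehicle of DMSO, but not whether the sham and SNI rats were catheterised and injected with it. An effect of G15 and an effect of its injection therefore cannot be told apart here. The methods select 3 rats per group for sequencing, whereas the animal table lists 6. The p-values therefore measure the spread between these 3 libraries, one per rat as far as the methods say. SNI libraries are titled SNI1 to SNI3, whereas all SNI + G15 titles carry SNI1. The titles do not say whether the SNI + G15 libraries came from separate rats.

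Libraries were of even depth, with 18484557 to 18756736 estimated reads each, and no pair of libraries held identical values. All 12 nerve injury markers examined were higher in SNI than in sham. Neuronal, Schwann cell and satellite glia markers were all present, as were markers of macrophages, so the tissue was whole ganglion and not isolated neurons. In such bulk tissue fewer cells of a type and less RNA per cell cannot be told apart.

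Type I interferons bind the receptor chains Ifnar1 and Ifnar2, which act through the kinases Jak1 and Tyk2. The signal leads to ISGF3, a complex that contains Stat2 and Irf9 and binds the interferon-stimulated response element (ISRE) in promoters and turns on antiviral genes. Several of its targets, such as Stat2, Irf9 and Irf7, are themselves parts of the pathway, and Usp18 and other targets dampen it. In sensory ganglia, neurons, glia and resident macrophages all carry interferon receptors, and type I interferons are known to alter the excitability of nociceptors.

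To show where that element lies, the promoters of the list were searched for it. RefSeq windows from 250 bases before to 50 bases after the annotated start (build GRCr8) were matched for 27 of the 37 genes. The core, which reads GAAA, any 2 bases and GAAA and was searched on both strands, stood in 18 of these 27 windows (66.7%), against 3.77% of the 27457 full-length windows of all genes and 2.91% of the 11140 windows of tested genes. The STAT-binding core TTCNNNGAA, which reads alike on both strands, stood in 6 of 27 (22.2%), against 8.68% of all windows. Of the 10 windows of genes that rose with injury and fell with G15, 5 held the ISRE core. It was held by 7 of the 9 windows of genes that fell with G15 without a call after injury. A match describes the letters in the window, and binding was not measured.

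The stretches below come from genes with 4 of the call patterns described in the results, so that they can be read beside the values. They are written 5′ to 3′ on the strand of the gene, end before the annotated start, and have the ISRE core in capitals, forward or as its reverse complement. Where a window held 2 matches, as in Oas1a, Oas1b and Bst2, only the one nearer to the start is in capitals, and the other overlaps it from upstream. Oas1a and Oas1b, related genes that had different calls after injury, are given as a pair.
Irf7, chr1:205800058-205800117, minus strand: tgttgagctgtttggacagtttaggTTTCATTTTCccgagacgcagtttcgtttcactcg
Rsad2, chr6:48788233-48788292, minus strand: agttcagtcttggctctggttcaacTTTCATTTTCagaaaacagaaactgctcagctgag
Ifit3, chr1:241527257-241527316, plus strand: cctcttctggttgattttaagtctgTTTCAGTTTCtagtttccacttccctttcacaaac
Oas1a, chr12:41330406-41330465, plus strand: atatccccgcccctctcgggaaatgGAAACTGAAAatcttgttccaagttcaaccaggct
Oas1b, chr12:41395871-41395930, minus strand: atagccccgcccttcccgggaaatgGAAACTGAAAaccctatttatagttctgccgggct
Gbp2, chr2:234005671-234005726, plus strand: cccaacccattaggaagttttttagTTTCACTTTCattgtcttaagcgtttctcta
Parp14, chr11:78408033-78408092, plus strand: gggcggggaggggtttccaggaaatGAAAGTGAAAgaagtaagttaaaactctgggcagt
Eif2ak2, chr6:21941113-21941153, plus strand: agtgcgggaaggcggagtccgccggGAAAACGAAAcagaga
Bst2, chr16:18255058-18255117, minus strand: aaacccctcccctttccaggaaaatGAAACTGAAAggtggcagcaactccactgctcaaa
Counting the base before the start as -1, the first base in capitals lay between -147 in Rsad2 and -16 in Eif2ak2 in these 9 stretches. The cores in capitals of Oas1a and Oas1b had the same letters, GAAACTGAAA.

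Across the list, the response to injury was mixed and the difference with G15 was in one direction. Shares of all genes are given for scale only, since the list was chosen with earlier results of these data known. After SNI, 16 of the 36 tested genes were higher than in sham and 6 were lower (quasi-likelihood test of edgeR, p-values adjusted by Benjamini-Hochberg over all genes tested, called at an adjusted p below 0.05). Of all genes tested, 23.3% were called higher and 22.4% lower in that comparison. The median log2 fold change was 0.20 over the list and 0.001 over all genes. In SNI + G15 against SNI, 32 of 36 were lower and 0 were higher, where 7.23% of all genes were called lower and 7.98% higher. No member was higher by DESeq2 or by limma-trend on log2(FPKM + 1) either, and 0 were higher at an unadjusted p below 0.05, where 16.3% of all genes were. All 36 had a log2 fold change below 0, as had 48.7% of all genes, with a median of -0.60 over the list and 0.0063 over all genes. A log2 fold change of -0.5 or less with a call was found for 23 of 36 members and 1.5% of all genes, and one of at least 0.5 for 0 members and 2.17% of all genes. After injury the same limits left 9 members higher and 1 lower, against 9.09% and 5.01% of all genes. Against sham, SNI + G15 was lower for 22 members and higher for 3, against 21.9% and 21.4% of all genes. At the same limits 16 were lower and 1 was higher, against 7.05% and 10.7% of all genes.

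Every adjusted p in the following text is from that test unless another is named, and FPKM values are listed in the order of replicates 1 to 3. Values ± SE are log2 fold changes with a standard error derived from the test. It is the absolute log2 fold change divided by the square root of the F statistic. Intervals of 1.96 such errors assume a normal distribution and are likely too narrow for 3 libraries per group. Over the 36 genes, the median log2 ratio of a library's FPKM to the sham mean was 0.17, 0.25 and 0.24 in the SNI libraries. It was -0.34, -0.38 and -0.41 in the SNI + G15 libraries, so that every SNI library was above the sham mean by this measure and every SNI + G15 library below it. Per length, mean sham levels ran from 0.410 FPKM for Oas3 to 451.9 for Ifi27, followed by Mx2 at 43.6, Irf7 at 41.0 and Isg15 at 36.0. The members that were lowest in their group were spread over the SNI + G15 libraries, with 7 in replicate 1, 15 in replicate 2 and 14 in replicate 3.

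**Figure D1:**
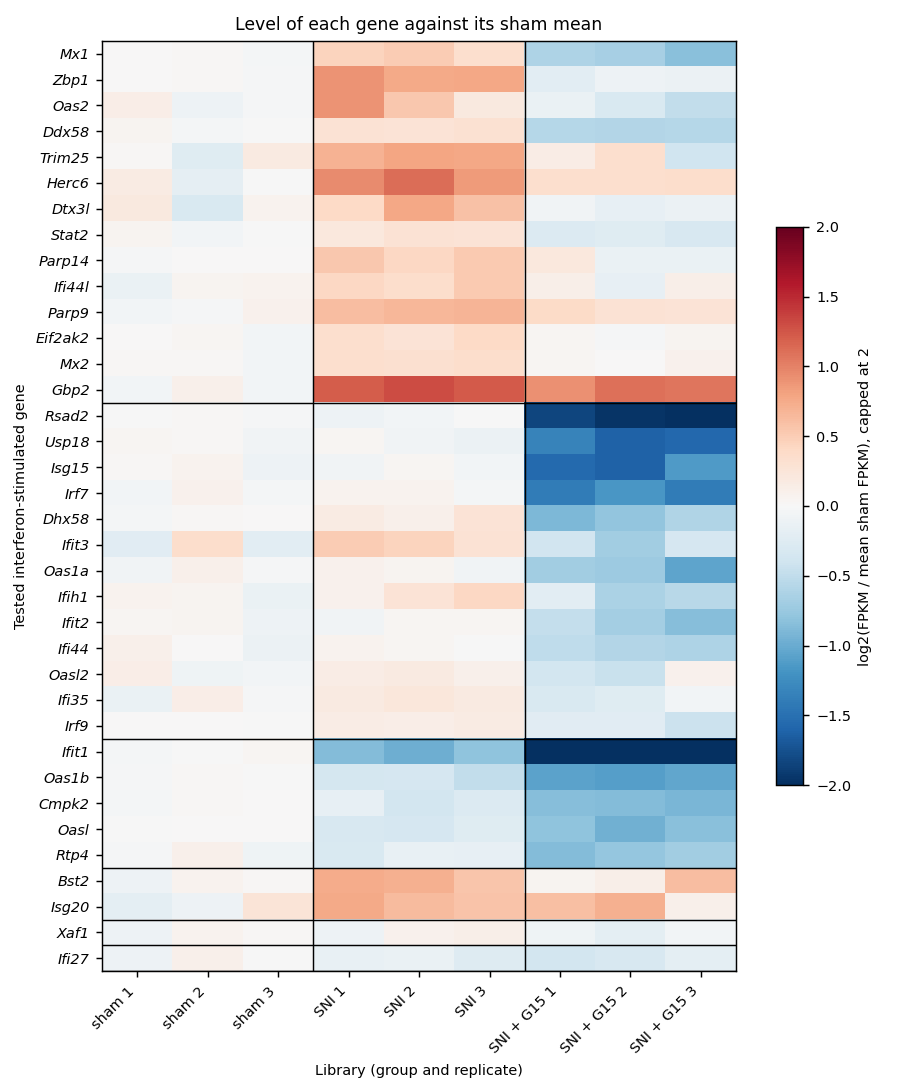
Each row is one of the 36 tested interferon-stimulated genes and each column one of the 9 libraries; colour gives log2 of the gene's FPKM over its mean in the 3 sham libraries, capped at 2 in either direction, and black lines separate groups and call patterns. The top block of 14 genes is red in SNI and paler or blue in SNI + G15, and the next 13 genes are near white in SNI and blue in SNI + G15.

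Taking both comparisons, which share the SNI libraries, 14 members rose with injury and fell with G15, 38.9% of the list against 2.5% of all genes tested. Among all genes that were higher in SNI, 10.7% were lower with G15. These 14 were Mx1, Zbp1, Oas2, Ddx58, Trim25, Herc6, Dtx3l, Stat2, Parp14, Ifi44l, Parp9, Eif2ak2, Mx2 and Gbp2. Against sham, 4 of them stood lower with G15, 7 had no call and 3 stood higher. Another 13 had no call after injury and fell with G15, namely Rsad2, Usp18, Isg15, Irf7, Dhx58, Ifit3, Oas1a, Ifih1, Ifit2, Ifi44, Oasl2, Ifi35 and Irf9, and 12 of these ended below sham. Ifit1, Oas1b, Cmpk2, Oasl and Rtp4 were lower after injury and lower again with G15. Bst2, Isg20, Xaf1 and Ifi27 had no call between SNI + G15 and SNI.

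**Figure D2:**
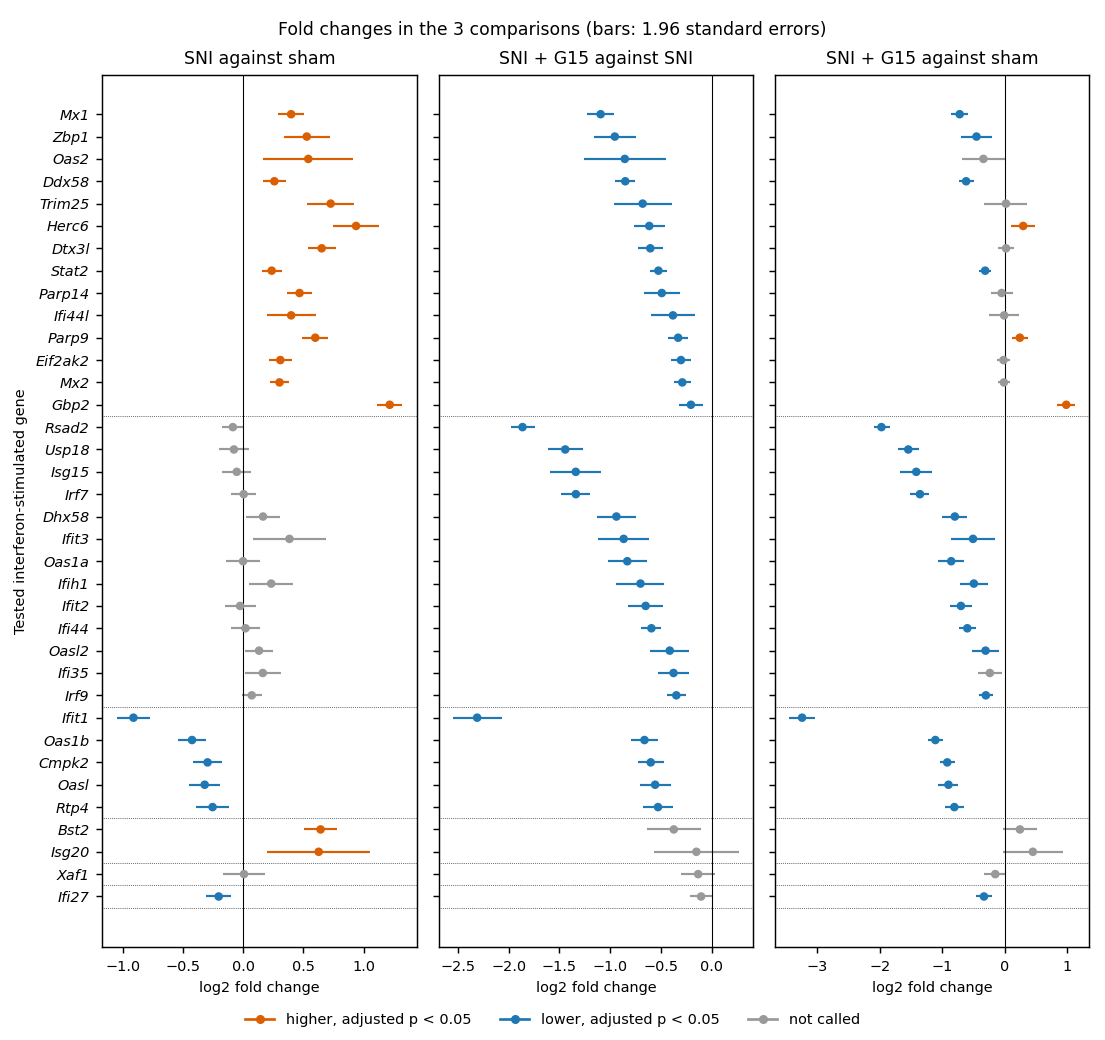
Points are log2 fold changes of the 36 tested genes in the 3 comparisons and bars extend 1.96 standard errors either way; orange marks genes called higher, blue genes called lower at an adjusted p below 0.05, and grey no call, with dotted lines between call patterns. In SNI + G15 against SNI every point lies left of 0, from -2.31 for Ifit1 to -0.10 for Ifi27.

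The 3 transcription factors on the list were lower with G15, as were 7.23% of all genes, and Stat2 had risen with injury. Among 8 other interferon regulatory factors tested, 1 was higher and 0 were lower with G15. Irf7, the factor that amplifies type I interferon production, had FPKM of 39.4, 43.5 and 40.1 in sham, 43.3, 42.9 and 39.8 in SNI and 15.6, 18.3 and 15.6 in SNI + G15. Sham and SNI overlapped, and every SNI + G15 library was below both. The log2 fold change was 0.0042 ± 0.053 after injury (adjusted p = 0.957) and -1.34 ± 0.071 with G15 (adjusted p = 1.64e-05), 2.53-fold lower than in SNI. Stat2, the subunit of ISGF3 that activates transcription, gave 25.9, 24.2 and 25.04 FPKM in sham, 28.9, 30.5 and 30.3 in SNI and 20.8, 21.3 and 20.1 in SNI + G15. No 2 groups overlapped, with SNI highest and SNI + G15 lowest. Stat2 rose by 0.24 ± 0.042 (adjusted p = 0.000962), was -0.52 ± 0.041 with G15 against SNI (adjusted p = 0.000128) and ended at -0.31 ± 0.051 against sham (adjusted p = 0.000759). Irf9, the DNA-binding subunit, had means of 25.1 ± 0.165 FPKM in sham, 27.8 ± 0.365 in SNI and 20.5 ± 1.59 in SNI + G15 (SD, n = 3), a difference of -0.35 ± 0.050 with G15 (adjusted p = 0.00255).

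The 5 sensors of foreign RNA and DNA and their regulators on the list all fell with G15, and 3 of them had risen with injury. Of 15 other tested genes of nucleic acid sensing and interferon induction, 0 were called in either direction with G15. Ddx58, which encodes the RNA sensor RIG-I, was at 6.36, 6.00 and 6.10 FPKM in sham and at 7.50, 7.42 and 7.62 in SNI. The SNI + G15 libraries gave 4.14, 4.09 and 4.14, below every sham library, and the spread within each group was small beside the gaps between them. The log2 fold changes were 0.26 ± 0.049 after injury (adjusted p = 0.00162) and -0.85 ± 0.051 with G15 (adjusted p = 2.83e-05). Dhx58, whose product LGP2 regulates RIG-I and MDA5, had 4.98, 5.21 and 5.17 FPKM in sham, 5.76, 5.5 and 6.21 in SNI and 2.74, 2.95 and 3.36 in SNI + G15. All SNI libraries were above all sham libraries, but the difference was not called (0.16 ± 0.072, adjusted p = 0.0842), and SNI + G15 fell below both groups (-0.94 ± 0.10 against SNI, adjusted p = 0.000528). Ifih1, encoding MDA5, had means of 3.29 ± 0.264, 3.95 ± 0.446 and 2.40 ± 0.390 FPKM in sham, SNI and SNI + G15 (SD, n = 3). Its fall with G15 was -0.70 ± 0.12 (adjusted p = 0.00625). The difference after injury was 0.23 ± 0.094 (adjusted p = 0.0655) and was called once SNI replicate 1 was left out (0.31, adjusted p = 0.0227).

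Trim25, the ubiquitin ligase that activates RIG-I, was 3.50, 2.93 and 3.92 FPKM in sham, 5.61, 5.97 and 5.89 in SNI and 3.82, 4.36 and 2.62 in SNI + G15. SNI stood above both other groups, and SNI + G15 replicate 3 was the lowest of all 9 libraries. It rose by 0.73 ± 0.10 (adjusted p = 0.000163) and was -0.68 ± 0.15 with G15 (adjusted p = 0.0170), a call that was lost without SNI replicate 2 (-0.66, adjusted p = 0.0707) or SNI replicate 3 (-0.67, adjusted p = 0.0655). Zbp1, a sensor of Z-form nucleic acids that can trigger cell death, had 2.41, 2.45 and 2.36 FPKM in sham, 4.47, 4.07 and 4.13 in SNI and 2.08, 2.24 and 2.21 in SNI + G15. SNI was well above both other groups. On counts the changes were 0.53 ± 0.10 after injury (adjusted p = 0.00122), -0.95 ± 0.11 with G15 (adjusted p = 0.000766) and -0.45 ± 0.12 against sham (adjusted p = 0.0143). The last of these was not called by DESeq2 (adjusted p = 0.0773) or by limma-trend on log2(FPKM + 1) (-0.10, adjusted p = 0.258) or log2(FPKM + 0.1) (-0.14, adjusted p = 0.253).

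The transcript from which the Zbp1 signal came differed as well, as far as the authors' estimates per transcript show. The table assigns Zbp1 to a predicted and a curated RefSeq transcript. The predicted one held 54.2%, 52.7% and 52.8% of the Zbp1 FPKM in the sham libraries, 16.8%, 19.4% and 21.8% in SNI and 21.6%, 24.6% and 6.8% in SNI + G15. Sham overlapped with neither injured group, whereas SNI and SNI + G15 overlapped each other. The curated transcript had 1.10, 1.16 and 1.11 FPKM in sham, 3.72, 3.28 and 3.23 in SNI and 1.63, 1.69 and 2.06 in SNI + G15. The FPKM of the gene was 1.75-fold higher in SNI, whereas its count was 1.44-fold higher. These shares are estimates from short reads at 73 to 155 reads per library and were not tested.

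**Figure D3:**
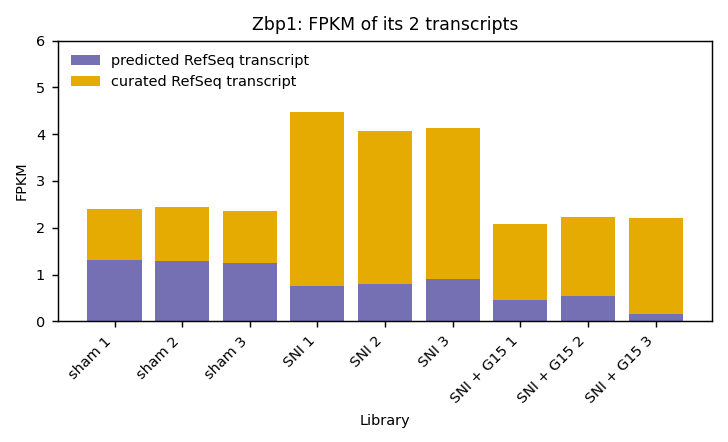
Bars give the FPKM of Zbp1 in each of the 9 libraries, split into the predicted (purple) and the curated (yellow) RefSeq transcript as estimated by the authors. The purple part is about as large as the yellow part in sham and is the smaller part in all SNI and SNI + G15 libraries.

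The 2′-5′ oligoadenylate synthetases, which make the second messenger that activates RNase L, and the kinase PKR were lower with G15 in 6 of 6 tested genes. After injury they went both ways, with 2 higher and 2 lower. Oas2 had 1.47, 1.25 and 1.32 FPKM in sham, 2.5, 1.96 and 1.54 in SNI and 1.23, 1.09 and 0.960 in SNI + G15. The groups did not overlap, but SNI ranged widely and replicate 3 lay close to sham. The rise of 0.54 ± 0.19 (adjusted p = 0.0391) was not called by DESeq2 (adjusted p = 0.0724) and was lost when any library but SNI replicate 3 was left out, with adjusted p from 0.0566 to 0.166. The fall with G15, -0.86 ± 0.21 (adjusted p = 0.0267), was lost without SNI replicate 1 or 2 or SNI + G15 replicate 2 or 3 (adjusted p from 0.0506 to 0.0855). Eif2ak2, which encodes PKR, the kinase that halts translation on double-stranded RNA, gave 13.9, 14.2 and 13.3 FPKM in sham, 17.4, 16.7 and 18.2 in SNI and 14.1, 13.5 and 14.4 in SNI + G15. SNI was above both groups, and SNI + G15 lay within the range of sham or just beyond it. It rose by 0.31 ± 0.050 (adjusted p = 0.000535) and was -0.30 ± 0.052 with G15 (adjusted p = 0.00615).

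Oas1a and Oas1b, whose promoters held the same ISRE core, had different calls after injury and the same call with G15. Oas1a had means of 12.0 ± 0.737 FPKM in sham, 12.2 ± 0.713 in SNI and 6.82 ± 0.876 in SNI + G15 (SD, n = 3). Its log2 fold change was -0.00099 ± 0.073 after injury (adjusted p = 0.992) and -0.83 ± 0.10 with G15 (adjusted p = 0.00101). Oas1b stood at 15.4 ± 0.293, 11.7 ± 0.711 and 7.33 ± 0.167 FPKM, lower in each step, with -0.42 ± 0.058 after injury (adjusted p = 0.000173) and -0.66 ± 0.068 with G15 (adjusted p = 0.000507). The difference between these paralogs was not tested, and their counts were fractional in 9 and 8 of the 9 libraries, as happens where reads are shared between similar genes. Oasl, a related protein without synthetase activity, also fell in both comparisons (-0.32 ± 0.066 and -0.56 ± 0.078). Oasl2 was -0.41 ± 0.10 with G15 (adjusted p = 0.0263), with SNI + G15 replicate 3 at 12.6 FPKM against 9.18 and 8.68 in the other two, and the call was lost whenever any library but that one was left out (adjusted p from 0.0625 to 0.0901) and by limma-trend on log2(FPKM + 1) and log2(FPKM + 0.1) (adjusted p = 0.0850 and 0.0859). Its difference from sham, -0.30 ± 0.11 (adjusted p = 0.0445), was lost when any sham library or SNI + G15 replicate 1 or 2 was left out (adjusted p from 0.0681 to 0.151), by limma-trend (adjusted p = 0.188 and 0.192) and with all genes of at least 1 count (adjusted p = 0.0542), and after injury Oasl2 was called only without sham replicate 1 (0.19, adjusted p = 0.0184). Oas3 had 14 to 37 reads per library and, when every gene with 1 read or more was fitted, log2 fold changes of 0.43 after injury (adjusted p = 0.152) and -0.59 with G15 (adjusted p = 0.209).

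The IFIT genes, whose products bind foreign RNA ends and block their translation, fell with G15 in 3 of 3 cases. Ifit1 had the largest difference of the list, with 9.30, 9.52 and 9.80 FPKM in sham, 5.24, 4.86 and 5.45 in SNI and 1.15, 0.900 and 1.05 in SNI + G15. The groups were far apart, and each SNI + G15 library held 34 to 44 reads where sham libraries held 355 to 377. It was lower after injury (-0.91 ± 0.069, adjusted p = 2.26e-06) and lower again with G15 (-2.31 ± 0.12, adjusted p = 1.65e-05), so that SNI + G15 stood 9.47-fold below sham. Ifit3 was at 2.68, 3.99 and 2.69 FPKM in sham, 4.43, 4.23 and 3.81 in SNI and 2.39, 1.92 and 2.47 in SNI + G15. Sham replicate 2 lay between SNI replicates 2 and 3, so sham and SNI overlapped, and all SNI + G15 libraries were below both. The fall with G15 was -0.87 ± 0.13 (adjusted p = 0.00296). After injury Ifit3 had 0.38 ± 0.15 (adjusted p = 0.0621), and without sham replicate 2 it was called higher (0.60, adjusted p = 0.00199). Against sham, SNI + G15 was -0.51 ± 0.18 (adjusted p = 0.0482), a call lost without sham replicate 2 (-0.29, adjusted p = 0.195) or without SNI + G15 replicate 1 (adjusted p = 0.0788) or 2 (adjusted p = 0.145). It was not made by DESeq2 (adjusted p = 0.0560), by limma-trend on log2(FPKM + 1) or log2(FPKM + 0.1) (adjusted p = 0.0783 and 0.0791) or with all genes of at least 1 count (adjusted p = 0.0561). Ifit2 had means of 5.22 ± 0.291, 5.24 ± 0.218 and 3.30 ± 0.423 FPKM (SD, n = 3) and was -0.65 ± 0.088 with G15 (adjusted p = 0.00206). Counts of all 3 IFIT genes were fractional in 5 to 9 libraries.

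The 3 large GTPases on the list rose with injury and fell with G15, and with G15 each ended at a different place against sham. Mx1, a dynamin-like GTPase that traps viral ribonucleoproteins, had 12.9, 13.1 and 12.6 FPKM in sham, 17.4, 18.3 and 16.3 in SNI and 8.42, 8.14 and 7.23 in SNI + G15. The 3 groups did not overlap and SNI + G15 was the lowest. The changes were 0.40 ± 0.054 after injury (adjusted p = 0.000150), -1.09 ± 0.069 with G15 (adjusted p = 3.64e-05) and -0.72 ± 0.068 against sham (adjusted p = 2.21e-05). Mx2, its paralog, stood at 44.5, 44.1 and 42.1 FPKM in sham, 54.7, 54.3 and 55.6 in SNI and 44.8, 43.7 and 46.3 in SNI + G15. SNI was above both other groups, which overlapped. It rose by 0.30 ± 0.040 (adjusted p = 0.000127) and was -0.29 ± 0.042 with G15 (adjusted p = 0.00287), with -0.011 ± 0.051 against sham (adjusted p = 0.876). Gbp2, a guanylate-binding protein that interferon-gamma also induces, had 12.4, 13.9 and 12.4 FPKM in sham, 29.9, 31.8 and 30.1 in SNI and 24.4, 27.6 and 27.0 in SNI + G15. All injured libraries, with or without G15, were well above sham. Gbp2 had the largest rise of the list, 1.22 ± 0.056 or 2.32-fold (adjusted p = 4.84e-08), and with G15 it was still 0.99 ± 0.074 above sham (adjusted p = 4.72e-06). Its fall with G15 was small, -0.20 ± 0.059 (adjusted p = 0.0485), and was lost when any library but SNI + G15 replicate 3 was left out (adjusted p from 0.0567 to 0.164) and with all genes of at least 1 count (adjusted p = 0.0625).

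Isg15, Usp18 and Herc6 belong to the system that attaches the ubiquitin-like protein ISG15 to other proteins and removes it, and 3 of 3 fell with G15. Isg15 itself was 36.7, 37.9 and 33.5 FPKM in sham, 34.5, 37.01 and 34.8 in SNI and 12.3, 11.7 and 16.5 in SNI + G15. Sham and SNI overlapped, and SNI + G15 was below both in every library, 2.53-fold lower than SNI (-1.34 ± 0.13, adjusted p = 0.000382). Usp18, the protease that removes ISG15 and also blocks the interferon receptor, followed with 13.9, 13.8 and 13.0 FPKM in sham, 13.95, 12.8 and 12.5 in SNI and 5.38, 4.4 and 4.54 in SNI + G15. Here too sham and SNI overlapped and SNI + G15 stood apart below them (-1.44 ± 0.087, adjusted p = 2.88e-05). After injury the log2 fold changes were -0.053 ± 0.061 for Isg15 (adjusted p = 0.503) and -0.077 ± 0.063 for Usp18 (adjusted p = 0.347). Herc6, the main ligase for ISG15 in rodents, had 2.26, 1.77 and 2.01 FPKM in sham, 3.86, 4.35 and 3.65 in SNI and 2.54, 2.53 and 2.57 in SNI + G15. SNI was highest and SNI + G15 lay between it and sham without overlap. It rose by 0.94 ± 0.10 (adjusted p = 2.33e-05) and was -0.62 ± 0.079 with G15 (adjusted p = 0.00152). Its level above sham with G15, 0.30 ± 0.10 (adjusted p = 0.0346), was not called by DESeq2 (adjusted p = 0.1) and was lost when any library but sham replicate 1 was left out (adjusted p from 0.0548 to 0.114).

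**Figure D4:**
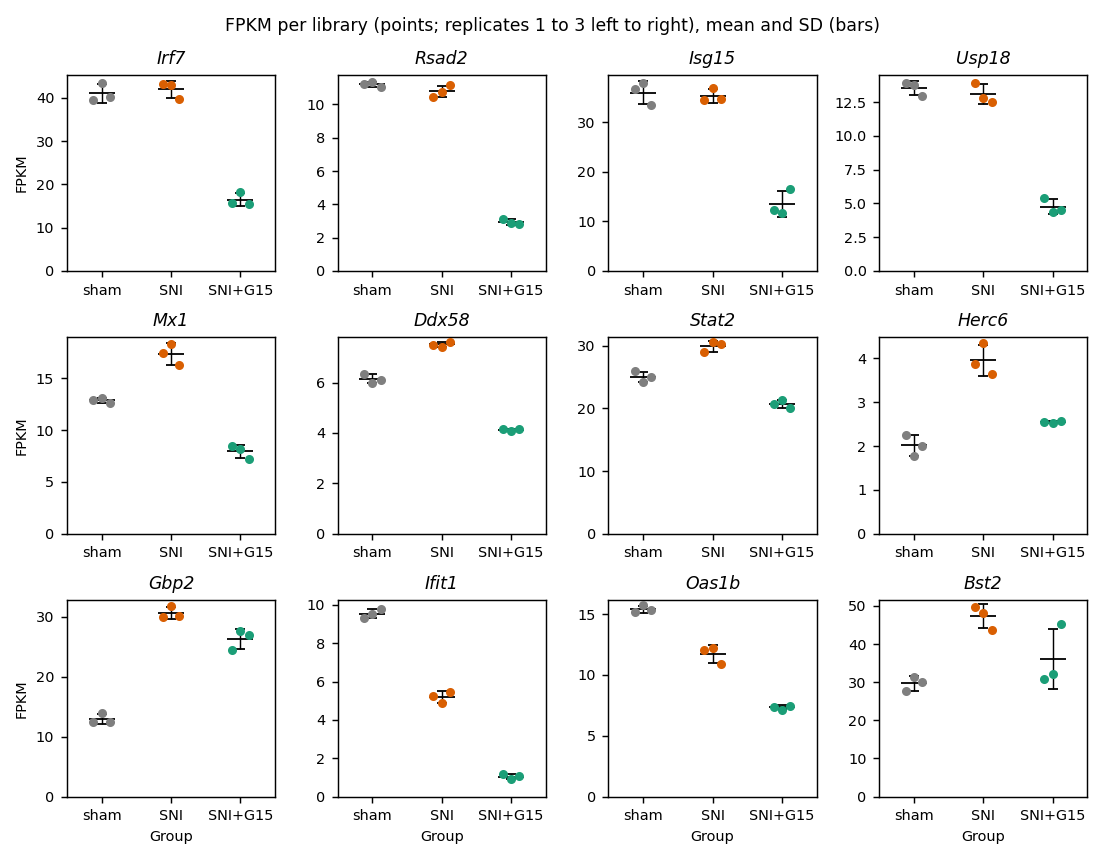
Points are the FPKM of 12 members in each of the 9 libraries, with horizontal bars for the group mean and error bars for 1 SD (n = 3); every axis starts at 0. Irf7, Rsad2, Isg15 and Usp18 are level in sham and SNI and low in SNI + G15, Mx1, Ddx58, Stat2, Herc6 and Gbp2 are highest in SNI, Ifit1 and Oas1b step down in both comparisons, and Bst2 has 1 SNI + G15 library near the SNI values.

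Among the antiviral enzymes of nucleotides and RNA, Rsad2 and Cmpk2, which lie next to each other in the genome, fell with G15, and Isg20 had no call between SNI + G15 and SNI. Rsad2 encodes viperin, which makes a chain-terminating nucleotide, and was 11.2, 11.4 and 11.1 FPKM in sham, 10.5, 10.8 and 11.2 in SNI and 3.13, 2.87 and 2.81 in SNI + G15. Sham and SNI overlapped, and SNI + G15 was 3.64-fold lower than SNI (-1.86 ± 0.061, adjusted p = 5.90e-07), the 6th smallest p of the 14305 genes. Cmpk2, a mitochondrial nucleotide kinase, had means of 13.5 ± 0.298, 11.2 ± 0.792 and 7.36 ± 0.164 FPKM (SD, n = 3), lower after injury (-0.30 ± 0.060, adjusted p = 0.00235) and with G15 (-0.60 ± 0.065, adjusted p = 0.000684). Isg20, a 3′ exonuclease of RNA, gave 1.69, 1.81 and 2.30 FPKM in sham, 3.28, 3.0 and 2.87 in SNI and 2.94, 3.16 and 2.07 in SNI + G15, from 24 to 47 reads per library. SNI was above sham, and the SNI + G15 libraries reached from the range of sham to that of SNI. The rise of 0.63 ± 0.22 (adjusted p = 0.0377) was not called by DESeq2 (adjusted p = 0.122) and was lost when any library but sham replicate 3 was left out (adjusted p from 0.0600 to 0.107). With G15 the difference was -0.15 ± 0.21, with an interval of 1.96 standard errors from -0.57 to 0.27 (adjusted p = 0.660).

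Parp9, Dtx3l and Parp14, which follow each other in the genome, all rose with injury and fell with G15. Parp9 and Dtx3l form a complex that ubiquitinates histones and viral proteins, and Parp14 is a mono-ADP-ribosyltransferase. Parp9 had 7.10, 7.28 and 7.85 FPKM in sham, 11.3, 11.8 and 11.8 in SNI and 9.70, 9.02 and 8.94 in SNI + G15. SNI + G15 lay between sham and SNI without overlapping either. The log2 fold changes were 0.60 ± 0.054 (adjusted p = 7.99e-06) after injury, -0.33 ± 0.050 (adjusted p = 0.00340) with G15 and 0.24 ± 0.067 (adjusted p = 0.0142) against sham, the last lost without sham replicate 1 (0.21, adjusted p = 0.0579). Dtx3l, at 7.59, 5.39 and 6.99 FPKM in sham, 8.73, 11.4 and 9.95 in SNI and 6.31, 5.92 and 6.17 in SNI + G15, was scattered in FPKM within sham and within SNI but steady in counts (415 to 447 reads in sham and 663 to 746 in SNI). SNI was above both other groups, with 0.65 ± 0.060 after injury (adjusted p = 8.80e-06) and -0.60 ± 0.064 with G15 (adjusted p = 0.000582). Parp14 gave 4.17, 4.26 and 4.25 FPKM in sham, 6.16, 5.66 and 6.09 in SNI and 4.89, 3.87 and 3.86 in SNI + G15. Replicate 1 of SNI + G15 was above sham and the other two below it, and all were below SNI (0.47 ± 0.053 after injury, adjusted p = 4.23e-05, and -0.49 ± 0.089 with G15, adjusted p = 0.00813).

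Of the remaining 7 effectors, 4 were lower with G15 and 3 were not called. Bst2, which encodes tetherin and holds budding virions on the cell surface, had 27.6, 31.3 and 30.1 FPKM in sham, 49.8, 48.3 and 43.7 in SNI and 30.9, 32.1 and 45.3 in SNI + G15. SNI was above sham, and SNI + G15 replicate 3 lay within SNI while replicates 1 and 2 lay near sham. It rose by 0.64 ± 0.068 (adjusted p = 2.68e-05), and with G15 the difference was -0.37 ± 0.14 (adjusted p = 0.0986). DESeq2 called it lower (adjusted p = 0.0284), as did edgeR without SNI + G15 replicate 3 (-0.58, adjusted p = 0.000698). Ifi27, a mitochondrial protein and by far the most abundant member per length, was at 423, 486 and 447 FPKM in sham, 409.8, 413 and 379.7 in SNI and 349.5, 364 and 394 in SNI + G15. SNI was below sham in every library and overlapped with SNI + G15. It was lower after injury (-0.20 ± 0.054, adjusted p = 0.0104), and with G15 it had -0.10 ± 0.058, with an interval from -0.22 to 0.0094 (adjusted p = 0.246), called lower once SNI + G15 replicate 3 was left out (-0.16, adjusted p = 0.0331).

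Xaf1, which promotes apoptosis, gave 5.75, 6.50 and 6.25 FPKM in sham, 5.75, 6.56 and 6.66 in SNI and 5.83, 5.36 and 5.94 in SNI + G15. All 3 groups overlapped, and the difference with G15 was -0.13 ± 0.087 with an interval from -0.30 to 0.037 (adjusted p = 0.321). Ifi44l had 2.55, 2.88 and 2.93 FPKM in sham, 3.71, 3.55 and 3.99 in SNI and 3.02, 2.5 and 3.03 in SNI + G15. SNI was above both other groups, which overlapped. Its rise, 0.40 ± 0.10 (adjusted p = 0.00950), was not called by DESeq2 (adjusted p = 0.0549). Its fall, -0.38 ± 0.11 (adjusted p = 0.0481), was called neither by DESeq2 (adjusted p = 0.151) nor with all genes of at least 1 count (adjusted p = 0.0569), and was lost when any library but SNI + G15 replicate 3 was left out (adjusted p from 0.0626 to 0.171). Its neighbour Ifi44 had 0.019 ± 0.060 after injury (adjusted p = 0.818) and -0.59 ± 0.050 with G15 (adjusted p = 0.000187), from 26.0 ± 0.727 to 17.1 ± 0.663 FPKM (SD, n = 3).

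Rtp4, a chaperone of membrane receptors that interferon induces, had 11.1 ± 0.711 FPKM in sham, 9.63 ± 0.561 in SNI and 6.47 ± 0.377 in SNI + G15 (SD, n = 3). It was -0.25 ± 0.069 after injury (adjusted p = 0.0122), a call that DESeq2 did not make (adjusted p = 0.0611) and that was lost without SNI replicate 1 (-0.21, adjusted p = 0.0542), and -0.53 ± 0.077 with G15 (adjusted p = 0.00284). Ifi35 was -0.38 ± 0.078 with G15 (adjusted p = 0.0145), lost without SNI replicate 2 (adjusted p = 0.0640) or 3 (adjusted p = 0.0521). Ifi35 was called higher after injury without sham replicate 2 (0.24, adjusted p = 0.0252) and by limma-trend on log2(FPKM + 1) (adjusted p = 0.0482), and lower with G15 than in sham without SNI + G15 replicate 3 (-0.31, adjusted p = 0.0273).

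Upstream of the members, interferon transcripts were barely detected. The 8 interferon genes in the table, among them Ifnb1, Ifng and 4 Ifna genes, had 0 to 4 reads in any library and none was tested. All 6 receptor chains were tested, and 3 rose with injury, namely Ifnlr1 (1.30 ± 0.075), Ifngr2 (0.49 ± 0.052) and Il10rb. With G15, Ifngr2, a chain of the interferon-gamma receptor, was higher again (0.29 ± 0.047, adjusted p = 0.00456). The type I receptor chains had log2 fold changes of 0.017 for Ifnar1 (adjusted p = 0.820) and 0.091 for Ifnar2 (adjusted p = 0.525) with G15. The receptor kinase Jak1 was lower with G15 (-0.26 ± 0.039, adjusted p = 0.00323). The kinases Tyk2 (-0.098, adjusted p = 0.371) and Jak2 (-0.079, adjusted p = 0.509) had no call with G15.

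Outside the list, calls were counted among regulators of the pathway and antiviral effectors. Of all genes tested, 23.3% were higher and 22.4% lower after injury, and 7.98% were higher and 7.23% lower with G15. Whether these small lists differ from those shares was not tested. The lists overlap, with Tlr3, Gbp5, Irf1 and Socs1 each counted in 2 of them. Of the 15 tested genes of nucleic acid sensing and interferon induction, 10 were higher and 2 lower after injury, and 0 were called in either direction with G15. Among 8 other interferon regulatory factors 5 rose and 1 fell with injury, and 1, Irf3, was higher with G15 (0.20). Of 12 negative regulators of the pathway, 1 was higher (Socs3, 0.36) and 1 lower (Adar, -0.29) with G15. Among 50 other interferon-inducible antiviral genes outside the list, 34 were higher and 3 lower after injury, and 24 were lower and 3 higher with G15. The lower ones included the helicase Ddx60 (-1.34 ± 0.20), Slfn4 (-0.95 ± 0.054), the ISG15-activating enzyme Uba7 (-0.93 ± 0.079) and Apol9a (-0.84 ± 0.10). The 3 higher ones were Ifitm1 (0.50 ± 0.073), Ifitm2 (0.24 ± 0.058) and Ifitm3 (0.26 ± 0.046), membrane proteins that block viral entry, with counts that were fractional in 9 of 9 libraries. Ifitm1 was at 24.0, 27.1 and 29.1 FPKM in sham, 54.6, 58.0 and 53.2 in SNI and 69.2, 79.9 and 82.1 in SNI + G15, rising at each step. Of 7 chemokines and regulators that interferon-gamma induces, 7 rose with injury and 4 fell with G15, among them the T cell chemokine Cxcl9 (-1.60 ± 0.11, adjusted p = 6.44e-05).

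**Figure D5:**
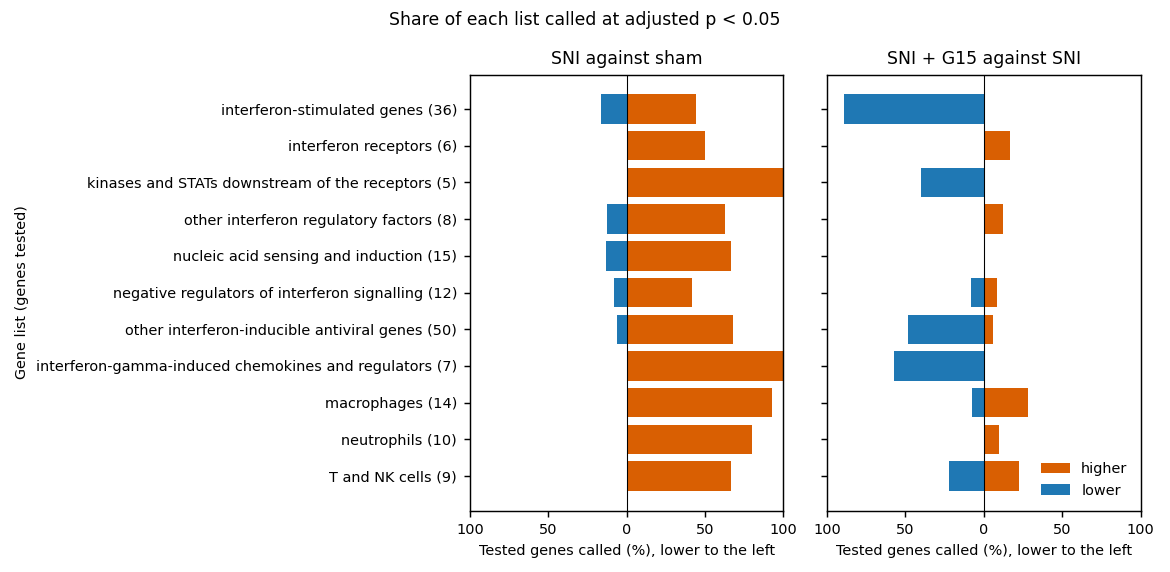
Bars give the percentage of the tested genes of each list that were called higher (orange, to the right) or lower (blue, to the left) at an adjusted p below 0.05, after injury and with G15, with the number of genes tested in brackets. The interferon-stimulated genes have the longest blue bar with G15, while the bars of nucleic acid sensing are empty there.

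Markers of cell types that could carry these transcripts were examined beside the members. Of 14 macrophage markers, 13 were higher in SNI than in sham, and with G15 4 were higher and 1 lower. Their summed FPKM ranged over 525 to 583 (sham), 1150 to 1190 (SNI) and 1300 to 1340 (SNI + G15). Lyz2, the most abundant of them, had means of 353 ± 22.0, 756 ± 15.6 and 878 ± 12.3 FPKM (SD, n = 3) and so held most of that sum. The markers called higher with G15 were Lyz2 (0.23 ± 0.033), Cd163 (0.48 ± 0.061), Cd14 (0.37 ± 0.079) and Mrc1 (0.31 ± 0.068). Ptprc was the 1 called lower (-0.43 ± 0.082), and Cx3cr1 had no call (-0.31 ± 0.13, adjusted p = 0.145). Of 7 markers of plasmacytoid dendritic cells, the main interferon producers of blood, 3 were tested and 0 were called with G15, and the defining marker Siglech had at most 0.28 FPKM in any library. Of 10 neutrophil markers 1 was higher with G15, and of 9 tested markers of T and NK cells 2 were higher and 2 lower. With G15, 9 of 9 fibroblast markers were higher (summed FPKM 633 to 655 against 467 to 470 in SNI), 5 of 8 Schwann cell markers were higher, and 6 of 8 erythroid markers were lower (299 to 346 against 420 to 436). After injury 8 of 8 erythroid markers had been higher than in sham (165 to 178). Against sham, 7 of the 8 erythroid markers were higher with G15 and 0 were lower. Of the 14 members that rose with injury and fell with G15, 3 were higher than sham with G15 and 4 were lower. Of 4 tested markers of meninges and mesothelium, 3 were higher and 1 lower with G15, with Msln at 4.12 ± 0.30. With G15, 1 of 10 neuronal markers was higher and 1 lower. Of 7 satellite glia markers 2 were higher and 1 lower, and of 8 endothelial markers 2 were higher and 1 lower. The part of these cell types in the members' difference was not tested.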

How the data were processed

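RNA from DRG tissue was sequenced as paired ends in 3 groups of 3 libraries, grouped by their titles. The authors deposited estimated counts and FPKM per gene and per transcript, and per the methods a gene's FPKM is the sum over its transcripts. The aligner and counter are not given in the sources used here. The submitters' processing notes name the mouse builds GRCm38 and mm10, and the labels' extraction text describes macrophages, although the samples are labelled rat DRG. Columns named control were taken as the sham libraries of the same number, since the other columns are named for SNI and SNI + G15. The 18 TPM columns, 18 group averages and the authors' correlation, component, box and density tables were not used.

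Members and gene lists were chosen with earlier results of these data known. Estimated counts were rounded to whole numbers. The filter followed the methods, with FPKM of at least 1 in at least 1 library, which left 14305 of 20194 genes. Each pair of groups was tested with edgeR 4.0.16 in R 4.3.3 (TMM normalisation, two-sided quasi-likelihood test, Benjamini-Hochberg adjustment). Alternatives were DESeq2 (the tool of the methods, run here in version 1.42.0), its size factors, and limma-trend 3.58.1 on log2(FPKM + 1) and log2(FPKM + 0.1). Others were 2 other filters, all 9 libraries in one fit and the replicate number as a block. Each library was also left out in turn, and a minimum absolute log2 fold change of 0.5 was applied. In simulated counts of the 14305 genes with 200 given a log2 fold change of 1, the test recovered 94% with 17 false calls for SNI against sham, 96% with 20 for SNI + G15 against SNI and 93.5% with 21 for SNI + G15 against sham. The members' median log2 fold changes were smaller, at 0.20, -0.60 and -0.395 in the same order, and more genes were called in the data than were changed here. This recovery therefore does not carry over to the members.

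Values in every library were given for members that rose with injury and fell with G15, for the 10 with the largest called difference with G15, for any called against the direction of most, and for tested members not called with G15. Other pathway genes could be named if called with a log2 fold change of 0.5 or more in either direction, and ligands and receptors in any case. Those named with a smaller difference, Jak1 and Tyk2 among them, were chosen after their values were seen. Deposited counts were fractional in at least 1 library for Oas1a, Oas1b, Oas3, Oasl2, Ifit1, Ifit2, Ifit3, Mx1, Mx2, Gbp2, Cmpk2, Parp9 and Rtp4, so reads of these genes were divided by estimation and their values are less certain. Promoter windows came from RefSeq (GRCr8). A result on the signalling proteins of the pathway is not reported here.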

Additional observations from a re-analysis of the deposited data

How the results depend on the processing

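In the 3 comparisons of 36 members under 14 alternatives each, 1380 of 1512 values kept direction and call, 73 lost a call, 12 gained one and 47 changed sign, 0 of which had been called. In SNI + G15 against SNI, 26 to 33 members were lower and 0 higher under every alternative without a minimum fold change, and 10 to 16 members rose with injury and fell with G15. With a minimum absolute log2 fold change of 0.5, 9 members were higher and 1 lower in SNI against sham, and 1 was higher in SNI + G15 against sham. Deviations of same-numbered libraries from their group means had correlations of -0.125 to 0.0923. No strong shared deviation was seen, which does not show whether same-numbered libraries were handled together. With the replicate block, 16 members were higher and 6 lower after injury, 30 were lower and 0 higher with G15, 20 were lower and 3 higher in SNI + G15 against sham, and 13 rose and fell. The block lost the rise of Isg20 (adjusted p = 0.0522), the falls of Ifi44l (0.0711) and Gbp2 (0.0725) with G15 and the differences of Ifit3 (0.0907) and Oasl2 (0.0523) from sham, and gained Ifit3 after injury (0.0435). The log2 values that changed sign were near 0. What moved them was not tested. For SNI against sham, limma with a pseudocount of 1 and of 0.1 gave 0.0043 and 0.0052 for Ifit2 and 0.021 and 0.022 for Oas1a, which had 0.0014 with FPKM of at least 1 in 3 libraries. Irf7 had -0.0020 with all genes of at least 1 count, and in the fit of 9 libraries Irf7 had -0.0042 and Xaf1 -0.0017. In SNI + G15 against sham, limma with both pseudocounts gave 0.022 and 0.029 for Ifi44l, -0.091 and -0.10 for Dtx3l, 0.019 and 0.020 for Eif2ak2 and 0.043 and 0.044 for Mx2. Ifi44l had 0.0032 under the stricter FPKM filter, and in the fit of 9 libraries Ifi44l had 0.0072 and Mx2 0.0027. With each library left out, SNI against sham ranged from -0.067 to 0.0056 for Ifit2, -0.037 to 0.067 for Ifi44, -0.026 to 0.049 for Irf7, -0.045 to 0.053 for Oas1a and -0.043 to 0.069 for Xaf1. Isg20 ranged from -0.27 to 0.0068 in SNI + G15 against SNI. SNI + G15 against sham ranged from -0.16 to 0.017 for Parp14, -0.070 to 0.086 for Ifi44l, -0.13 to 0.21 for Trim25, -0.011 to 0.058 for Dtx3l, -0.041 to 0.014 for Eif2ak2 and -0.031 to 0.015 for Mx2. Isg20 had 24 to 47 reads per library and Oas3 had 14 to 37, and the part of depth in their missing calls was not tested.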
